A study of Mus musculus with 2 samples.

Results

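The imprinted Dlk1-Dio3 microRNA cluster was described as the plus-strand microRNA genes of GENCODE M21 in an interval of mm10 chromosome 12 that begins just before Dlk1 (start 109452823) and ends just past Mirg (end 109749460). This rule found 59 of the 2202 microRNA genes counted in the series. Of these, 19 form the Rtl1-antisense part and 40, farther along the chromosome, form the Mirg part. The boundary falls in the widest gap of the locus, 63860 bases between Mir370 and Mir882. Both names are wider than the annotation: 6 of the 19 genes lie opposite Rtl1 and 14 of the 40 lie within the gene Mirg.

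MicroRNA-seq libraries came from total RNA of heart tissue of adult female B6CASTF1/J mice aged 18 to 20 months, first-generation hybrids of C57BL/6J and CAST/EiJ. There was 1 group of 2 libraries, numbered as biological replicates 1 and 2, with no treatment or other genotype named, and the RNA size range is labelled as below 30 with no unit. The tissue records differ but the donor record is the same, which leaves it unknown if 1 or several animals gave the hearts. All spreads below are therefore between these libraries only and may be technical.

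Sense reads assigned to any of the microRNA genes came to 3383676 in replicate 1 and 3676084 in replicate 2. Levels are counts per 1000000 of these (CPM), given as mean ± SD over n = 2 unless a library is named. A gene with 0 counts could hold up to 0.887 CPM in replicate 1 and 0.816 CPM in replicate 2, the level of 3 counts. A member was detected when each library held 10 or more of its reads. Intervals cover counting error only, since amplified reads without molecular identifiers are not independent molecules. Reads are about as long as a mature microRNA, and the members' mature sequences are 19 to 26 bases long, so levels are compared between genes without dividing by length. Ratios between genes are therefore ratios of reads. Whether different sequences were captured equally well was not tested, and the intervals do not cover it. Reads that map to several places entered no count, and reads of the CAST/EiJ and C57BL/6J alleles are not separated; whether sequence variants of CAST/EiJ lowered the counts of some members was not tested. The heart muscle genes Mir208a (1418 ± 241 CPM) and Mir499 (3772 ± 289.9 CPM), which lie in cardiac myosin genes, were counted in both libraries.

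The locus is imprinted, so its genes are expressed mainly from the copy of a single parent. Dlk1, Rtl1 and Dio3 are expressed from the paternal chromosome, and the long noncoding RNAs Meg3, Rian and Mirg, with their microRNAs and small nucleolar RNAs, from the maternal chromosome. The microRNAs opposite Rtl1 are fully complementary to its messenger RNA and can direct its cleavage, while those of the Mirg part arose largely by tandem duplication and pair with other messenger RNAs. The cluster is best known from brain, placenta, and embryonic and regenerating muscle.

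Mature sequences were taken from RefSeq (GRCm38.p6), in which 57 of the 59 members had an entry; Gm23912 and Gm27379 had none. The sequences below belong to the highest members of each part, and capitals mark the seed (bases 2 to 8), which guides pairing with a target. Both arms of each hairpin are shown because a count per hairpin does not tell the arms apart.
miR-127-5p: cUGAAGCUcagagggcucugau
miR-127-3p: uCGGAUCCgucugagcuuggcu
miR-337-5p: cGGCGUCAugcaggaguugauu
miR-337-3p: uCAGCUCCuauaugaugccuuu
miR-433-5p: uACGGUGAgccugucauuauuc
miR-433-3p: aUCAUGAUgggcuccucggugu
miR-541-5p: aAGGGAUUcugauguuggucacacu
miR-541-3p: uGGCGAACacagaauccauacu
miR-411-5p: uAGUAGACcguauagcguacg
miR-411-3p: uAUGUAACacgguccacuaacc
miR-379-5p: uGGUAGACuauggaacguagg
miR-379-3p: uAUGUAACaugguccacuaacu
miR-382-5p: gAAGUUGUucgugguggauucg
miR-382-3p: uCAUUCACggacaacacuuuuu
miR-154-5p: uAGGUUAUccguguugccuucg
miR-154-3p: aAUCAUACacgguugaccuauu
Of these, only the 3p arms of miR-379 and miR-411 share a seed.

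The aged heart yielded a low summed level of these genes, of which a few held most. The 59 members together stood at 1465 CPM in replicate 1 and 2393 CPM in replicate 2, which is 0.146% (Wilson 95% interval 0.142 to 0.151) and 0.239% (0.234 to 0.244) of the sense gene counts. Detection reached 28 members (47.5%), against 14.4% of all 2202 genes. Of the other members, 20 had some counts and 11 had 0 in both libraries. The median level of the detected members was 20.6 CPM and that of all detected genes was 62.2 CPM. The order of levels was much alike in the libraries, with a Spearman correlation of 0.914 across the 28 detected members and 0.947 across all detected genes; the points share their libraries, and genes are not independent. Mir127 alone held 35.4% ± 3.99 of the members' counts, the highest 3 members (with Mir541 and Mir411) held 58.3% ± 4.23, and the highest 10 held 84.7% ± 1.57.

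**Figure D1:**
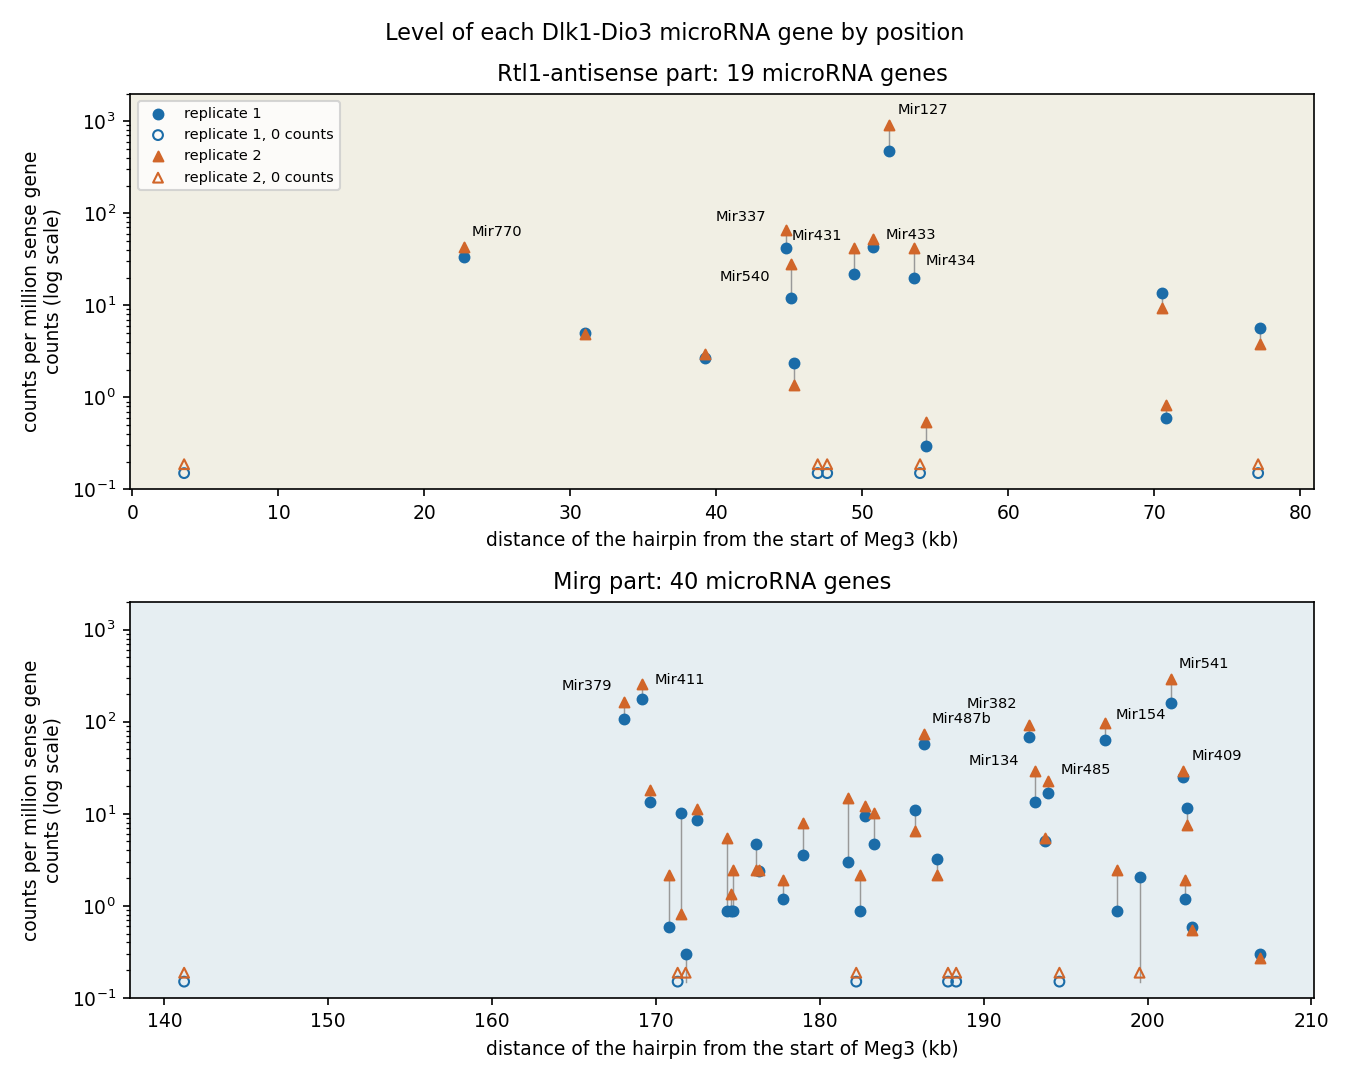
Level of each of the 59 microRNA genes (CPM of sense gene counts, log axis) against the distance of its hairpin from the start of Meg3 in kb, with circles for replicate 1, triangles for replicate 2 and open symbols at the bottom for 0 counts. Mir127 stands above all others of the upper panel at 477 and 914 CPM, while in the lower panel high and low genes alternate and Mir541, Mir411 and Mir379 lead.

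Opposite Rtl1, Mir127 was the highest of 6 genes and of the whole cluster. It had 1613 counts in replicate 1 and 3359 in replicate 2, or 477 and 914 CPM (mean 695 ± 309), and ranked 75 among all 2202 genes. Its hairpin (chromosome 12, 109592846 to 109592915) lies opposite the coding sequence of Rtl1, a gene derived from a retrotransposon and needed in placenta. Mir433, Mir431 and Mir434, which lie opposite the same coding sequence, stood far lower. Mir433 had 145 counts in replicate 1 and 195 in replicate 2 (47.9 ± 7.21 CPM), Mir431 had 73 and 154 (31.7 ± 14.4 CPM) and Mir434 had 67 and 154 (30.8 ± 15.6 CPM). Mir127 thus exceeded Mir433 by 11.1 times in replicate 1 (exact interval at 95% confidence 9.38 to 13.3) and 17.2 times in replicate 2 (14.9 to 20.0). It exceeded Mir431 by 22.1 times (17.5 to 28.3) and 21.8 times (18.6 to 25.8). Mir136 had 1 count in replicate 1 and 2 in replicate 2, and Mir432 had 0 in both.

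Outside Rtl1, the first part held 13 genes, none as high as 100 CPM. Mir337, between Meg3 and Rtl1 (109585789 to 109585885), had 142 counts in replicate 1 and 244 in replicate 2 (54.2 ± 17.3 CPM). Its neighbour Mir540, 194 bases downstream, had 41 and 103 (20.1 ± 11.2 CPM). Mir770, which overlaps an exon of Meg3 (109563692 to 109563785), had 114 and 160 (38.6 ± 6.95 CPM). In introns of Rian, Mir341 had 46 and 34 counts (11.4 ± 3.07 CPM), and Mir370, known for regulating lipid metabolism in liver, had 19 and 14 (4.71 ± 1.28 CPM). Mir673, just downstream of Meg3, had 17 and 18 (4.96 ± 0.0902 CPM). Mir540 ran from 12.1 to 28.0 CPM and Mir341 from 9.25 to 13.6 CPM over the libraries, so their ranges overlap and their order is not resolved.

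In the Mirg part the counts were spread over several genes. Mir541, in an intron of Mirg (109742409 to 109742498), had 535 counts in replicate 1 and 1081 in replicate 2, or 158 and 294 CPM (226 ± 96.1). Mir411 (109710175 to 109710256) had 593 and 952, or 175 and 259 CPM (217 ± 59.2). The order of these genes was not resolved in replicate 1, where Mir541 was 0.902 times Mir411 (interval 0.801 to 1.02). In replicate 2 Mir541 was the higher, at 1.14 times Mir411 (1.04 to 1.24). Mir379, the first detected hairpin of this part (109709060 to 109709125), had 365 and 594 counts, or 108 and 162 CPM. Replicate 2 was the higher library for all 3, with no overlap of the counting intervals. Mir379 and Mir411 lie 1049 bases apart and kept their ratio, with Mir411 at 1.62 times Mir379 in replicate 1 (1.42 to 1.86) and 1.60 times in replicate 2 (1.45 to 1.78).

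A second tier of this part held Mir382, Mir154 and Mir487b. Mir382, in an exon of Mirg (109733771 to 109733846), had 229 counts in replicate 1 and 339 in replicate 2 (79.9 ± 17.4 CPM). Mir154, in an intron of Mirg (109738433 to 109738498) and the namesake of a family spread over this part, had 212 and 353 (79.3 ± 23.6 CPM). Mir487b had 195 and 272 (65.8 ± 11.6 CPM). Mir382 and Mir154 could not be ranked, with Mir154 at 0.926 times Mir382 in replicate 1 (0.764 to 1.12) and 1.04 times in replicate 2 (0.895 to 1.21). Below them stood Mir409 (85 and 108 counts, 27.2 ± 3.01 CPM), Mir134 (45 and 106, or 13.3 and 28.8 CPM), known from the dendrites of neurons, and Mir485 (57 and 84, 19.8 ± 4.25 CPM). The other 9 detected genes of this part lay between 5.23 CPM (Mir668) and 15.6 CPM (Mir299a). They were Mir299a (45 and 66 counts), Mir376a (32 and 45), Mir329 (29 and 42), Mir369 (39 and 28), Mir376c (10 and 55), Mir381 (37 and 24), Mir300 (16 and 38), Mir667 (12 and 29) and Mir668 (17 and 20). Mir376c had the libraries farthest apart, and Mir369 and Mir381 had more reads in replicate 1.

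**Figure D2:**
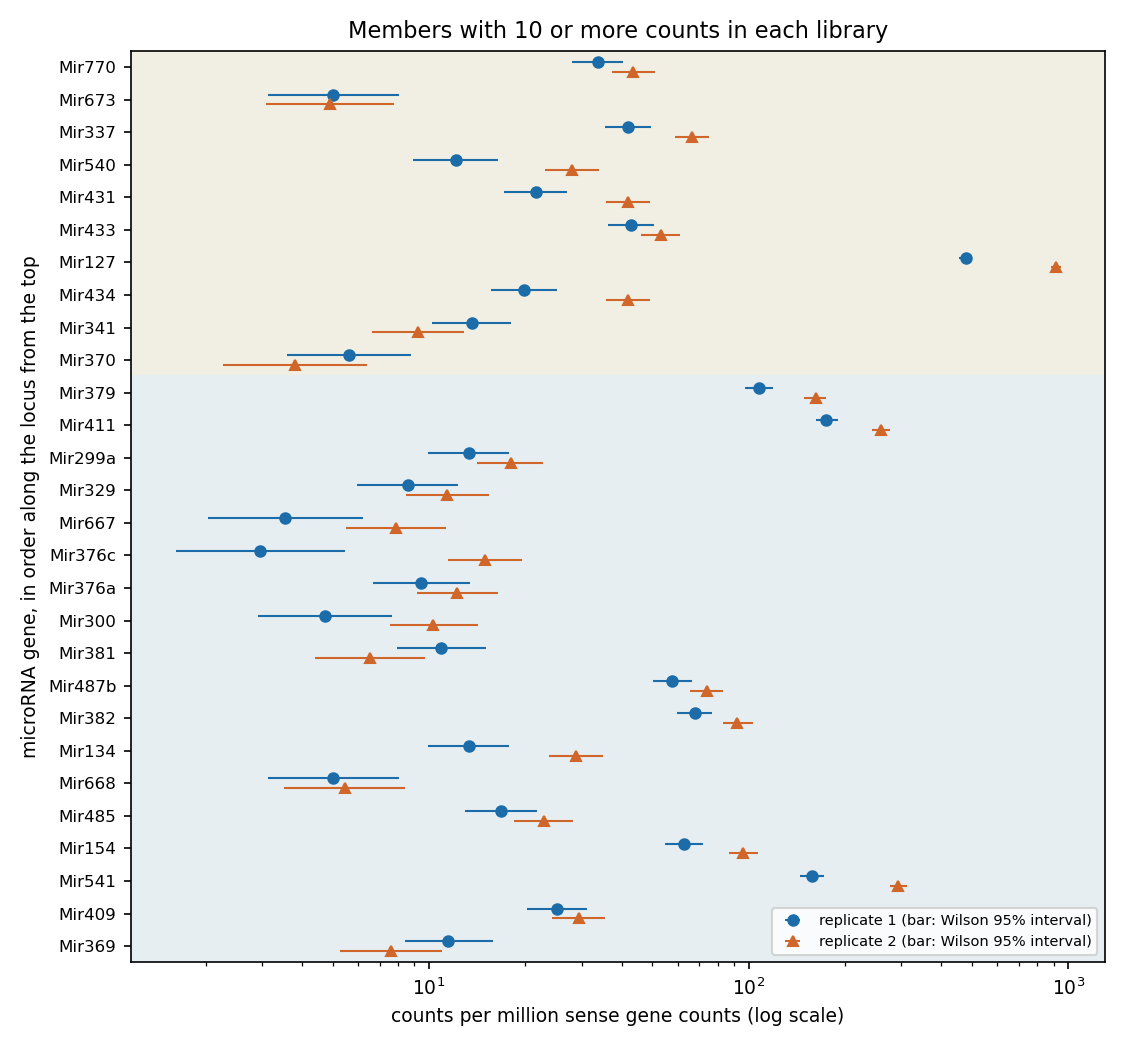
Levels of the 28 detected members in CPM of sense gene counts (log axis), in order along the locus, with circles for replicate 1, triangles for replicate 2 and bars for the Wilson 95% interval. The background shade marks the Rtl1-antisense part above and the Mirg part below; Mir127 lies farthest right at 477 and 914 CPM, and Mir376c has intervals that lie well apart (10 and 55 counts).

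Both parts took about the same share of the counts, but the first owed it to a single gene. The Rtl1-antisense part stood at 679 CPM in replicate 1 and 1212 CPM in replicate 2, and the Mirg part at 786 and 1181 CPM. The Mirg part was thus 1.16 times the Rtl1-antisense part in replicate 1 (interval 1.09 to 1.22) and 0.974 times in replicate 2 (0.934 to 1.02), so the Mirg part was higher in replicate 1 and the parts were not told apart in replicate 2. Mir127 made up 70.2% of the first part in replicate 1 and 75.4% in replicate 2, whereas Mir541 made up 20.1% and 24.9% of the second. Without the highest member of each part the Mirg part stood at 3.04 ± 0.0944 times the Rtl1-antisense part. That is a ratio of sums, and the Mirg part holds more genes. The median level of the detected members ran the other way, at 31.3 CPM in the Rtl1-antisense part and 17.7 CPM in the Mirg part. Without the members that share a stretch with another locus, Mir411 and Mir487b among them, the ratio of the parts was 0.747 ± 0.0870. The members of this kind in the first part had 0 counts, so the removal could only lower the ratio. Detection was similar, with 10 of 19 members in the first part and 18 of 40 in the second.

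**Figure D3:**
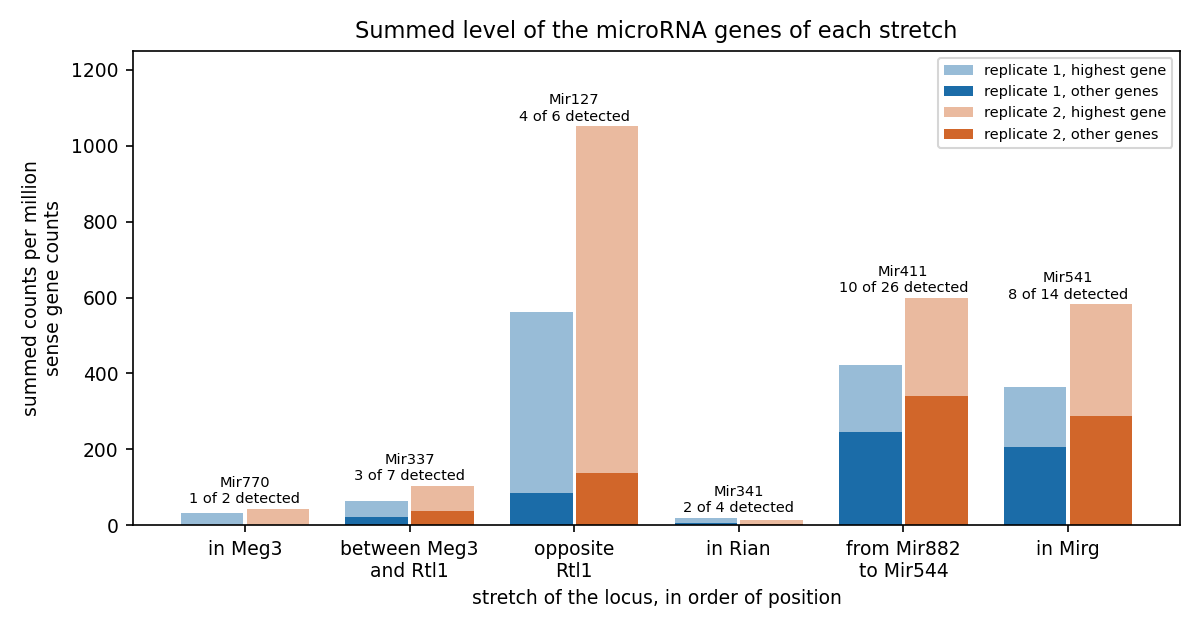
Summed level of the members in each stretch of the locus (CPM of sense gene counts, linear axis from 0), by library, with the highest gene in the lighter shade on top of the others. The stretch opposite Rtl1 reaches 561 and 1051 CPM, of which Mir127 is 84.9% and 86.9%. The other genes of both Mirg part stretches sum to more than those opposite Rtl1. These are not levels per gene, since the Mirg part stretches hold 26 and 14 genes and the stretch opposite Rtl1 holds 6.

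The annotated transcripts divide the locus into stretches of unlike summed level and unlike gene number. The 2 genes in Meg3 summed to 33.7 CPM in replicate 1 and 43.5 in replicate 2, the 7 between Meg3 and Rtl1 to 64.1 and 104, and the 4 in Rian to 19.8 and 13.9. The 26 genes from Mir882 to Mir544, upstream of the annotated start of Mirg, summed to 421 and 599 CPM. The 14 genes within Mirg summed to 365 and 582 CPM. Of the 14, 9 overlap an exon and 5 lie in introns, and the highest, Mir541, is intronic.

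Hairpins next to each other differed by far more than counting error. In 1387 bases from Mir541 to Mir410 lie 5 hairpins, with 535 and 1081 counts of Mir541, 85 and 108 of Mir409, 4 and 7 of Mir412, 39 and 28 of Mir369, and 2 and 2 of Mir410. Mir409 and Mir412 are 52 bases apart, and Mir409 exceeded Mir412 by 21.2 times in the first library and 15.4 times in the second (exact interval of the latter 7.24 to 39.3). Mir410, known with Mir495 from cardiomyocyte proliferation, was among the lowest, and Mir495 had 4 and 7 counts. In 1930 bases from Mir382 to Mir453 the counts ran from 0 to 229 in replicate 1 and from 0 to 339 in replicate 2. Mir382 was 5.09 times Mir134, 292 bases away, in replicate 1 (3.68 to 7.17) and 3.20 times in replicate 2 (2.56 to 4.02). By contrast, the 3 hairpins from Mir494 to Mir1193 were all low, with 3 counts each in replicate 1 and 5 to 20 in replicate 2.

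Most members had seeds of their own. Of 97 seeds among 105 different mature sequences, 9 were shared by members at different hairpins. The seed GGUAGAC of miR-379-5p recurs in miR-1193-5p, and the seed UGGAUAU recurs in miR-376b-5p and miR-376c-5p. These sequences are shown to let the shared seeds and the closeness of the miR-376 pair be seen.
miR-379-5p: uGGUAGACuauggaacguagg
miR-1193-5p: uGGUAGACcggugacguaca
miR-376b-5p: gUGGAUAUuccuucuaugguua
miR-376c-5p: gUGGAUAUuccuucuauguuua
miR-494-5p: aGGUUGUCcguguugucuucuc
miR-410-5p: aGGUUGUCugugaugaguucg
Counted from the 5′ end, miR-376b-5p and miR-376c-5p differ by 1 substitution, G19U, and miR-379-3p and miR-411-3p, which share the seed AUGUAAC, by 2, U10C and U22C. Mir379 was 122 times Mir1193 in replicate 1 (41.3 to 593) and 66.0 times in replicate 2 (34.5 to 145). Mir376c and Mir376b had 10 and 3 counts in replicate 1 and 55 and 8 in replicate 2, and Mir494 and Mir410, which share GGUUGUC, had 3 and 2 in replicate 1 and 20 and 2 in replicate 2. The bases GGU at positions 2 to 4, seen in 4 of the 6 lines above and picked after the sequences were read, occurred in 19.0% of the members' mature sequences (15.2% in the Rtl1-antisense part and 20.8% in the Mirg part) and in 2.45% of all mouse mature sequences of the table. The Rtl1-antisense sequences had a median GC content of 57.7% and those of the Mirg part 46.4%, against 52.2% for all mouse mature sequences.

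Few members share a long stretch with another microRNA locus, which bears on reads that map to several places. A run of 20 or more bases recurred in a microRNA hairpin at another, not overlapping place for 8 of 59 members (13.6%), against 48.9% of all microRNA genes, and for 3 of 28 detected members against 23.1% of all detected genes. Mir1906-1 is identical over its 80 bases to Mir1906-2 and had 0 counts, and Mir3070a and Mir3070b share 43 bases and had 0 counts each. Mir376b and Mir376c share 31 bases, and Mir376b shares 20 with Mir487b. Mir411 shares 21 bases with Mir758, which had 1 count in replicate 1 and 0 in replicate 2. Counting overlapping genes too adds Mir299a, which shares its run with Mir299b on the other strand, and gives 9 of 59 members (15.3%) against 49.2% of all genes. The counts of these 9 genes may be uncertain for this reason, but not all to the same degree. A whole listed mature sequence recurs in another microRNA hairpin only for Mir1906-1, Mir3070a and Mir3070b. For the others, Mir411 and Mir487b among them, none does, though only 1 arm is listed for Mir376c and for Mir487b. Whether reads of these genes were lost was not tested. Matches outside annotated microRNA genes were not examined.

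Overlap with a microRNA gene annotated on the minus strand was found for 7 members, Mir337, Mir136, Mir299a, Mir380, Mir376a, Mir539 and Mir409. The minus-strand genes themselves had next to no reads: Mir3544, opposite Mir337, had 1 sense count in replicate 1 and 0 in replicate 2, and the other 6 (Mir3071, Mir299b, Gm25750, Gm25252, Gm44322 and Gm24321) had 0. In their antisense column they carry exactly the counts of the plus-strand member, for example 85 and 108 at Gm24321, the sense counts of Mir409. In the column for reads on either strand all 7 members stand at 0, and that column lists 925685 reads of replicate 1 and 852067 of replicate 2 as ambiguous, against 0 in the sense column. The strand-blind column thus lacks 318 of the members' counts in replicate 1 and 481 in replicate 2, while the other 52 members have equal counts in both columns. The pair at Mir337 is shown because its arms are complementary over 17 and 21 bases.
miR-337-3p: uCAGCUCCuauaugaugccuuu
miR-3544-5p: aGAAAGGCaucauauaggagcug
At Mir299a the opposite hairpin encodes the same letters: miR-299b-3p matches 18 bases of miR-299a-3p, and miR-299b-5p matches 21 bases of miR-299a-5p. Whether reads of Mir299a were lost in this way was not tested.

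Members under the detection limit included several known from heart. Mir323 had 35 counts in replicate 1 and 3 in replicate 2, which is 13.8 times higher in replicate 1 after scaling (exact 95% interval 4.35 to 70.2). Mir494, known from ischaemic heart, went the other way, with 3 and 20 counts (5.63 times higher in replicate 2, interval 1.67 to 29.6). These genes, like Mir136, Mir412, Mir495, Mir539, Mir666 and Mir493, were singled out after their values were seen. Mir323 and Mir494 each rest on 3 counts in 1 of the libraries. Mir539, known from heart mitochondria, had 11 and 8 counts, Mir666 had 16 and 9, and Mir493 had 9 and 11, all with intervals of the ratio that include 1. The 11 members with 0 in both libraries were Mir1906-1, Mir3070a, Mir3070b, Mir432, Gm23912, Mir882, Mir1197, Mir654, Gm27379, Mir544 and Mir453. The other members that were not detected had at most 9 counts in either library.

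The cluster was higher in replicate 2 in both parts. After scaling with TMM, a trimmed mean of the ratios of all detected genes, the members' sum in replicate 2 was 1.50 times that in replicate 1 (exact 95% interval 1.45 to 1.55). The factor was 1.64 (1.56 to 1.72) in the Rtl1-antisense part and 1.38 (1.31 to 1.45) in the Mirg part, and these intervals do not overlap. Without Mir127 the factor of the Rtl1-antisense part was 1.35 (1.23 to 1.49), and that of the Mirg part without Mir541 was 1.30 (1.23 to 1.37), so the remaining genes of the parts were not told apart. The median log2 ratios of the detected members were 0.39 and 0.32. Only the 4 genes in Rian summed to less in replicate 2, at 0.643 times (0.438 to 0.940), and they rest on 67 and 51 counts. The median log2 ratio of replicate 2 over replicate 1 was 0.32 over the 28 detected members, 22 of which lay above 0 and 6 below, and 0.05 over all detected genes.

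Each detected gene was also tested for a difference between the libraries beyond counting noise, with a two-sided exact binomial test and Benjamini-Hochberg adjustment over every detected gene; no condition is tested. At an adjusted p of 0.05, 14 of the 28 detected members were called, against 60.4% of all detected genes. In direction, 13 members (46.4%) were higher in replicate 2, against 33.2% of all detected genes, and 1 (3.57%) was higher in replicate 1, against 27.2%. The detected members had to pass 10 counts in both libraries, which left out Mir323 and Mir494. Mir127 was higher by 1.76-fold (log2 0.81, 95% interval 0.73 to 0.90; exact binomial test, adjusted p = 6.97e-81) and Mir541 by 1.71-fold (log2 0.77, 0.62 to 0.92; exact binomial test, adjusted p = 1.86e-24). Mir379 and Mir411 were higher by 1.37-fold and 1.36-fold. Mir376c had the widest called difference, 4.65-fold (log2 2.22, 1.23 to 3.35; exact binomial test, adjusted p = 7.51e-07). Also called higher in replicate 2 were Mir337, Mir540, Mir431, Mir434, Mir300, Mir382, Mir134 and Mir154, with log2 ratios of 0.32 (Mir382) to 1.09 (Mir540). Mir381 was the member called higher in replicate 1 (log2 -0.87; adjusted p = 0.0353, exact binomial test). Scaling by library totals gave Mir381 an adjusted p of 0.0847 in the exact test, so it was then not called, and scaling with DESeq2 size factors gave Mir382 0.0527.

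Not all neighbours opposite Rtl1 were called. Mir431 (log2 0.83), Mir127 and Mir434 (log2 0.96) were called, while Mir433, between Mir431 and Mir127, had a log2 ratio of 0.18 (95% interval -0.13 to 0.50) and was not. The interval of Mir433 does not overlap that of Mir127 or Mir434 but does overlap that of Mir431 (0.42 to 1.26). In the Mirg part, Mir369 (-0.72, -1.48 to 0.02) lay apart from Mir541 (0.77), and was not called itself.

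**Figure D4:**
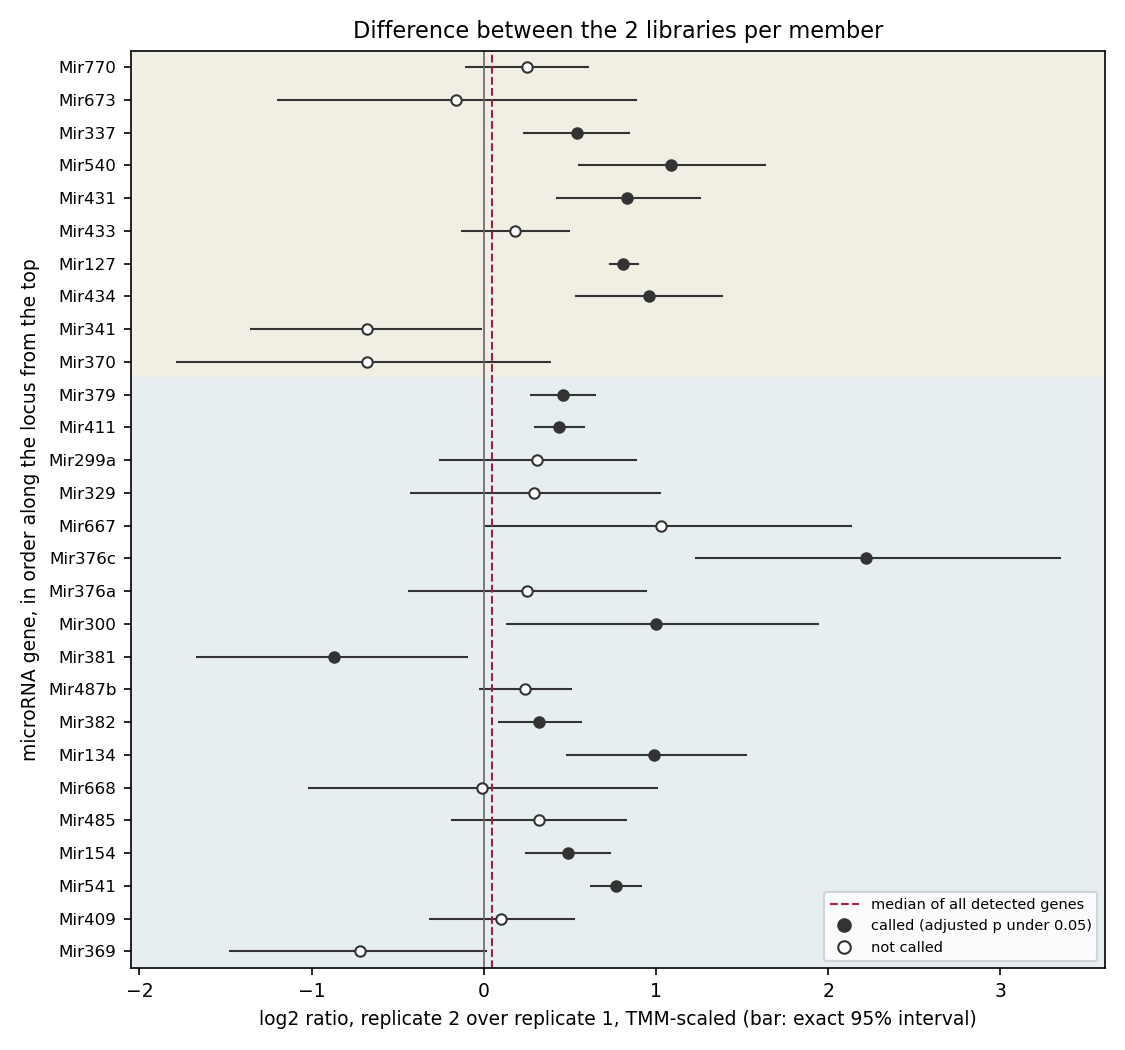
Log2 ratio of replicate 2 over replicate 1 for the 28 detected members after TMM scaling, in order along the locus, with exact 95% intervals that cover counting error only; filled points were called and the dashed line is the median of all detected genes (0.05). Most points lie right of 0, Mir376c farthest at 2.22, and 6 lie left of it, of which Mir381 alone was called.

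Marker genes of other cells also differed between the libraries. From replicate 1 to replicate 2, the 8 heart muscle genes summed to 5725 and 4909 CPM, with 4 of 5 detected genes called higher in replicate 1, and the endothelial gene Mir126a stood at 129043 and 57714 CPM. Smooth muscle genes summed to 35639 and 50822 CPM with both called higher in replicate 2, the 6 blood genes to 7230.3 and 11320.2 CPM with 3 called each way, and the 7 epithelial genes to 215 and 829 CPM with 6 called higher in replicate 2. Of the blood genes, Mir451a (1691 and 803 CPM), Mir144 (1119 and 255) and Mir486 (1372 and 880.3) were lower in replicate 2. Mir150 (2345 and 7737 CPM), Mir142 (570.4 and 1323) and Mir223 (133 and 322) were higher there, so the sum hides opposite differences. The 11 neuronal genes summed to 248 and 218 CPM, with 2 of 4 detected genes called higher in replicate 1 and 0 in replicate 2. Mir124a-1, Mir124a-2, Mir124a-3, Mir9-1 and Mir9-2 were at 0, but these microRNAs are encoded at several loci and their reads may have been set aside. The same may hold for heart muscle genes such as Mir1a-1 (20 and 8 counts), Mir133a-1 (5 and 17) and Mir133a-2 (27 and 9). The heart muscle sum was mostly Mir499 (3977 and 3567 CPM) and Mir208a (1588 and 1247 CPM), and it may understate these cells. None of the 8 heart muscle or 6 blood genes was at 0 in both libraries, and neither was any epithelial, smooth muscle or endothelial one. The part of these cell types in the level of the cluster was not tested, and in bulk tissue fewer cells of a type and less RNA per cell cannot be told apart.

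Among microRNA genes of other imprinted loci, Mir335, in Mest, stood at 493 CPM in replicate 1 and 732 in replicate 2 and was called higher in replicate 2. Mir483, in Igf2, stood at 36.1 and 36.7 CPM, Mir298 at 19.8 and 18.0, Mir296 at 12.4 and 10.3, and Mir675, in H19, at 1 count in each library. Of these 5 genes, 4 were detected and 1 was called.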

How the data were processed

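MicroRNA-seq was deposited for 2 libraries of 1 group. The values are raw counts per microRNA gene that the authors deposited without headers, in columns for reads on either, the sense and the antisense strand, as the values of the files show. Per the labels the build is mm10, and the deposited notes name annotation M21. The aligner is not given in the sources used here. Multimapping reads (43.9% and 43.2% of all reads), which entered no gene, and 3 other rows that are no genes were left out. Members were found by position in GENCODE M21, to which all 2202 identifiers matched. Sense counts were scaled with TMM (edgeR 4.0.16) on genes with 10 or more counts in each library and compared by a two-sided exact binomial test with Benjamini-Hochberg adjustment at 0.05; edgeR's own test needs 2 groups. Ratios of counts have exact and shares Wilson 95% intervals. DESeq2 1.42.0 size factors were an alternative. Software was R 4.3.3, Python 3.11.15, scipy 1.17.1 and pandas 2.3.3. The test was checked on simulated counts drawn with counting noise only, which is the noise that the test assumes. This check therefore does not bear on other variation between the libraries. Named genes were the detected members, members with 0 counts or a shared seed, minus-strand microRNA genes of the interval, other imprinted loci and cell type markers; members outside this rule were named after their values were seen. Members and lists were chosen with earlier results of these data known.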

Additional observations from a re-analysis of the deposited data

How the results depend on the processing

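The number of detected members stayed between 22 and 33 (28 as reported), and that of called members between 12 and 15 (14 as reported), under every alternative run. Leaving out a library gave 30 to 31 detected members, a cluster share of 0.146% to 0.239% and a ratio of the parts of 0.974 to 1.16. The share was 0.0682% of all reads and 0.553% of the sense counts without the 10 highest genes. The ratio of the Mirg part to the Rtl1-antisense part was 0.747 without the 8 members that share 20 bases at a place that does not overlap them, 3.04 without the highest member of each part, and 1.26 against only the genes opposite Rtl1; the genes left out set these values. The median log2 ratio of the detected members lay between 0.26 and 0.44. Library totals moved the median of all detected genes from 0.05 to 0.18 and called 15 members higher in replicate 2 and 0 in replicate 1; DESeq2 size factors called 12 and 2, adding Mir341 to Mir381. No paired analysis was possible because there is only 1 group. Depth limits ratios between members with few counts, such as Mir376c over Mir376b in replicate 1 (3.33, interval 0.858 to 18.8).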
